A study of Mus musculus with 8 samples.

Results

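Of the 21968 gene symbols in every expression table, 9 genes of the hepatocyte growth factor and epidermal growth factor (EGF) systems were taken by symbol and followed across sorted cells of the injured mouse liver. They comprise the ligand genes Hgf, Hbegf, Areg, Ereg and Tgfa and the receptor genes Met, Egfr, Erbb2 and Erbb3, and all 9 of 9 passed the filter on low counts. RNA was sequenced from 4 groups: F4/80high cells with beta-galactosidase activity (b-gal+), F4/80high cells without it (b-gal-), EpCAM-positive cells, and hepatocytes, with 2 libraries in each group and cells of 2 mice pooled in each library. All mice carried the Lgr5-LacZ transgene, a beta-galactosidase reporter, on a mixed C57BL/6 and CBA background, and all had received 1 intraperitoneal injection of the hepatotoxin carbon tetrachloride (CCl4, 1 µl per g in rapeseed oil) 6 days before collection. Mice were 10 to 12 weeks old by the sample labels, against 7 to 12 weeks in the series text. Livers were digested with collagenase, leftover tissue with pronase, and hepatocytes were collected as the pellet of a slow spin. The other cells were incubated with FDG, a fluorogenic substrate of beta-galactosidase, and with antibodies to F4/80 (a macrophage surface protein encoded by Adgre1) or EpCAM (an epithelial adhesion protein), and were sorted by flow cytometry. Every group carried the transgene and the injury, and uninjured livers were not analysed here, so the values below compare cell populations of injured livers.

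Hepatocyte growth factor (HGF) is secreted as an inactive single chain, is cut by serine proteases into its active form and binds the receptor tyrosine kinase MET. In the liver it is known as a product of non-parenchymal cells, mainly stellate and endothelial cells, that acts on hepatocytes during regeneration. Amphiregulin (Areg), epiregulin (Ereg), heparin-binding EGF-like growth factor (Hbegf) and transforming growth factor alpha (Tgfa) are made as membrane-anchored precursors, are released by metalloproteases of the ADAM family and bind the EGF receptor. Egfr, Erbb2 and Erbb3 encode members of 1 receptor family that signal as pairs: ERBB2 has no known ligand of its own, and ERBB3, a receptor of neuregulins, has little kinase activity and signals mainly through its partners.

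The sequences just upstream of the start site are shown for a ligand gene counted mainly in the first library of each non-hepatocyte group (Areg), the ligand gene whose counts were most alike between hepatocytes and b-gal- cells (Tgfa) and the receptor gene with the largest difference between groups (Egfr). Each is the 250 bases before the RefSeq gene start on build GRCm38.p6, plus strand, 5′ to 3′, with matches to any of 4 searched motifs in capitals. Of the 9 genes, 6 matched the RefSeq promoter table, and Ereg, Erbb3 and Hbegf did not. The Areg window lies at chr5:91139349-91139598, the Tgfa window at chr6:86194972-86195221 and the Egfr window at chr11:16751953-16752202.
Areg: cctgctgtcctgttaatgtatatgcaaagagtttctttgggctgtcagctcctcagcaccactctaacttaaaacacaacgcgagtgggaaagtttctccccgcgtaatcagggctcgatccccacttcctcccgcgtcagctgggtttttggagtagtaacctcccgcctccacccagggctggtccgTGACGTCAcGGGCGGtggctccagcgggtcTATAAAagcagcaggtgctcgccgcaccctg
Tgfa: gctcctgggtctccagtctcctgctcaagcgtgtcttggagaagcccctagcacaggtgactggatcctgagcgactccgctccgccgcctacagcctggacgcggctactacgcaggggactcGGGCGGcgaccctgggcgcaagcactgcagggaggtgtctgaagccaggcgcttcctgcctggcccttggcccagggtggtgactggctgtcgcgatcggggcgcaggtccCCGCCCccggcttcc
Egfr: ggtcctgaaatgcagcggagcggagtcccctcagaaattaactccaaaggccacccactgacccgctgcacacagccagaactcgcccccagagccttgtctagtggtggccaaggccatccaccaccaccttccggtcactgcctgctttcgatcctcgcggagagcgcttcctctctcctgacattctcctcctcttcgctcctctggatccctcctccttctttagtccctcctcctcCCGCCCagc

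The motifs were the cAMP response element (TGACGTCA), the AP-1 site (TGANTCA), the TATA box (TATAAA) and the GC box (GGGCGG, or CCGCCC on the other strand), each searched on both strands. The Areg window held a cAMP response element 61 to 54 bases before the start, a GC box 52 to 47 bases before it and a TATA box 31 to 26 bases before it, with no overlap among them. The Tgfa window held GC boxes 126 to 121 and 15 to 10 bases before the start, and the Egfr window held 1 GC box 9 to 4 bases before the start. Of 32851 RefSeq promoter windows of the same length, 1.55% held the cAMP response element, 6.75% the AP-1 site, 12.4% the TATA box and 32.7% the GC box. A match describes the letters only. The share of G and C was 57.2% in the Areg window, 69.2% in the Tgfa window and 60.8% in the Egfr window.

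The libraries held 16948568 to 24549242 reads in named genes, and 14432 to 16130 genes had any reads in a library. Levels are given as CPM, the reads of a gene scaled to a common library size, after TMM scaling, a correction for RNA composition, and differences as limma log2 differences with p adjusted over 14404 genes. An adjusted p under 0.05 counts as a call, and the p-values measure only the spread between these pooled libraries. The 2 libraries of a group had a rank correlation over genes of 0.983 for b-gal+ cells, 0.980 for b-gal- cells, 0.926 for EpCAM-positive cells and 0.985 for hepatocytes, so the EpCAM-positive pair stood apart from the other pairs. Summed over 6 Kupffer cell markers, b-gal+ libraries had 23932 and 21265 CPM, b-gal- libraries 1645 and 1360.2 CPM, EpCAM-positive libraries 518 and 60.0 CPM and hepatocyte libraries 240.5 and 165 CPM. Summed over 6 markers of liver sinusoidal endothelium, the same groups had 2134 and 1636 CPM, 14106 and 16663 CPM, 5875 and 5004 CPM, and 295 and 785 CPM. The b-gal- F4/80high cells thus carried more endothelial than Kupffer marker RNA. The F4/80 gene Adgre1 had 1732 and 1361 CPM in b-gal+ cells, 311 and 134 CPM in b-gal- cells, 138 and 14.2 CPM in EpCAM-positive cells, and 20.1 and 13.9 CPM in hepatocytes. The EpCAM-positive libraries held the cholangiocyte markers Epcam (88.6 and 214 CPM) and Krt19 (28.4 and 112 CPM). They also held 4191 and 1632 CPM over 5 B and plasma cell markers, and 697 and 4952 CPM over 6 hepatocyte markers, mostly Alb. In bulk RNA of a sorted population, fewer cells of a type and less RNA per cell cannot be told apart.

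The scale decides how many genes are called in each direction. Relative to TMM, the median gene moved up against hepatocytes by 0.77 (b-gal+), 0.96 (b-gal-) and 1.17 (EpCAM-positive) on the log2 scale with the authors' scaling, and by 0.73, 0.90 and 1.22 with library totals. It moved by -0.13 in b-gal+ against b-gal- cells under either scale, by -0.30 and -0.40 in b-gal+ against EpCAM-positive cells, and by -0.15 and -0.26 in b-gal- against EpCAM-positive cells. The share of called genes that were higher in b-gal+ than in b-gal- cells was 44.4% with TMM, 32.5% with the authors' scaling and 34.1% with library totals. Against hepatocytes, the share called higher was 49.9%, 76.7% and 75.7% for b-gal+ cells, 53.0%, 79.7% and 78.8% for b-gal- cells, and 53.5%, 84.9% and 85.4% for EpCAM-positive cells under the same 3 scales. Against EpCAM-positive cells it was 45.1%, 25.6% and 21.1% for b-gal+ cells and 46.2%, 25.5% and 17.3% for b-gal- cells.

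Hgf RNA was found in all 3 non-hepatocyte populations and was lowest in hepatocytes. The libraries had 61.9 and 45.8 CPM in b-gal+ cells, 140.2 and 107 CPM in b-gal- cells, 65.7 and 31.5 CPM in EpCAM-positive cells, and 9.31 and 15.2 CPM in hepatocytes. Both b-gal- libraries lay above every other library, and both hepatocyte libraries lay below every other library, while the b-gal+ and EpCAM-positive libraries overlapped. Against hepatocytes, Hgf was 4.34-fold higher in b-gal+ cells (limma adjusted p = 0.00308), 9.92-fold higher in b-gal- cells (adjusted p = 0.000346) and 3.71-fold higher in EpCAM-positive cells (adjusted p = 0.00513). These 3 calls were made under each of the 18 alternatives. Between b-gal+ and b-gal- cells the log2 difference was -1.19 (95% interval -2.13 to -0.26), with an adjusted p of 0.0721 that ranged between 0.0208 and 0.319 over the alternatives. Endothelial marker sums were also highest in the b-gal- libraries. The sum over 10 stellate cell and fibroblast markers was 1107 and 319 CPM in b-gal+ cells, 1337 and 1032 CPM in b-gal- cells, 1021 and 762 CPM in EpCAM-positive cells, and 339 and 548 CPM in hepatocytes. All 10 stellate markers had more than 3 reads in every library, and their part in the Hgf values was not tested. Hgf lies on chromosome 5 from 16553495 to 16620152, plus strand (GRCm38), and shares 484 exon bases with Gm43489 on the same strand, a gene with no row in the tables.

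**Figure D1:**
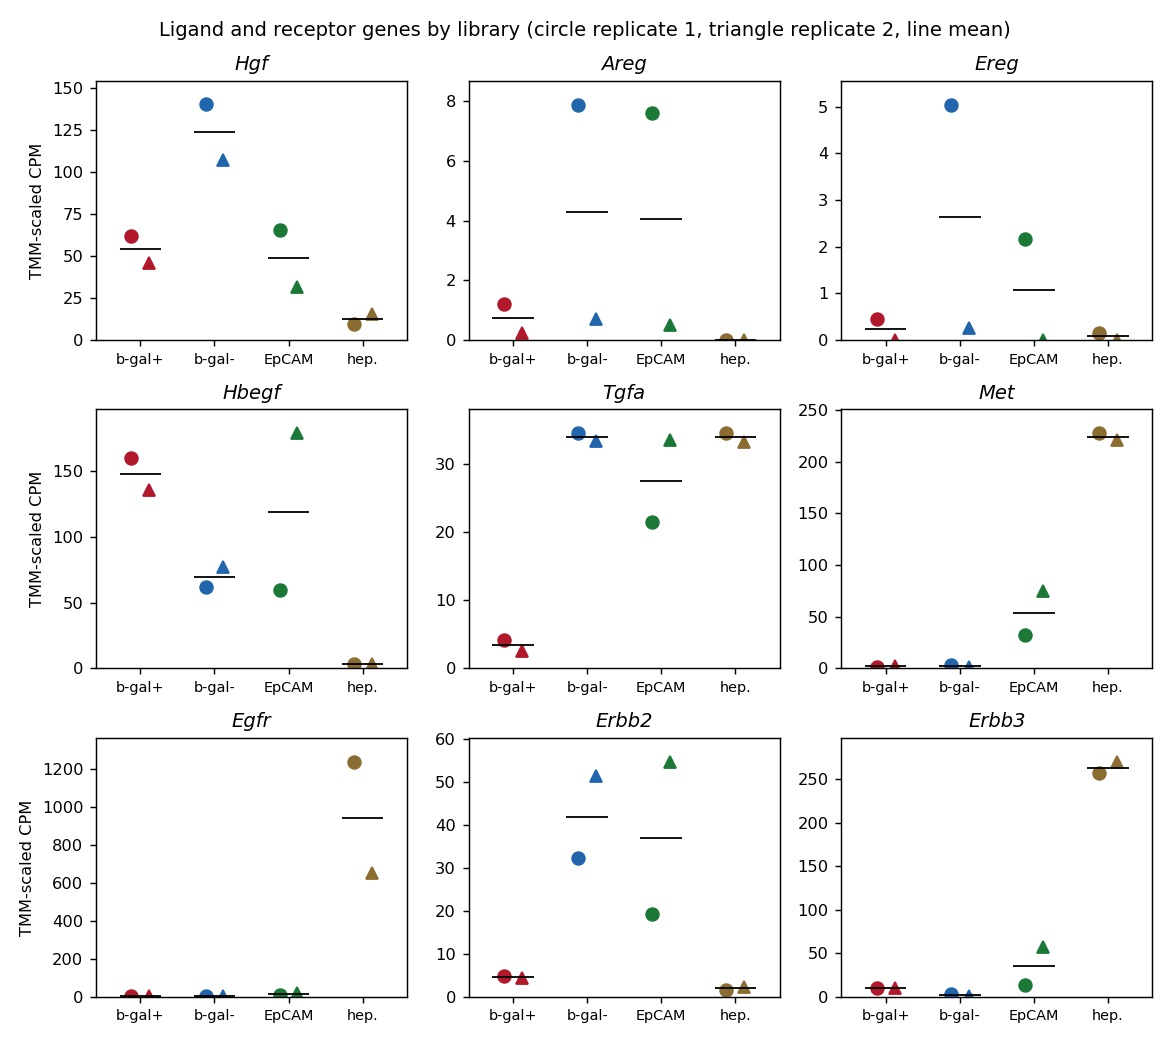
TMM-scaled CPM of the 9 genes in each of the 8 libraries (points, 1 panel per gene, each with its own linear axis from 0), with groups along the horizontal axis. Hgf and Hbegf are lowest in hepatocytes, Met, Egfr and Erbb3 are highest in hepatocytes, and both Tgfa points of the b-gal+ group (4.12 and 2.62 CPM) lie below all others.

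Hbegf was the other ligand gene with a high count outside hepatocytes. It had 159.7 and 136 CPM in b-gal+ cells, 62.3 and 77.1 CPM in b-gal- cells, 59.2 and 179 CPM in EpCAM-positive cells, and 3.18 and 3.19 CPM in hepatocytes. The hepatocyte libraries lay far below the rest, and the 2 EpCAM-positive libraries spanned the range of both F4/80high groups. Against hepatocytes it was 40.1-fold higher in b-gal+ cells (limma adjusted p = 8.6e-05), 18.9-fold higher in b-gal- cells (adjusted p = 0.000224) and 28.1-fold higher in EpCAM-positive cells (adjusted p = 0.000158), and each call was made under all 18 alternatives. The b-gal+ libraries did not overlap the b-gal- libraries, with a log2 difference of 1.08 (95% interval -0.01 to 2.17) and an adjusted p of 0.144 that ranged between 0.00588 and 0.385 over the alternatives. Immediate-early genes, which respond within minutes to stimuli such as tissue digestion, were listed with the heat-shock genes Hspa1a, Hspa1b and Dnajb1. The sum over this list was in part ordered like Hbegf over the libraries. Summed over its 14 genes, the b-gal+ libraries had 13973 and 12276 CPM and the b-gal- libraries 8386 and 8117 CPM. The EpCAM-positive libraries had 10612 and 17978 CPM, and the hepatocyte libraries 1489 and 1016 CPM. All 14 had more than 3 reads in every library. The AP-1 subunit gene Fos had 2751 and 2562 CPM in b-gal+ libraries, 1964 and 1900 CPM in b-gal- libraries, 2010 and 3048 CPM in EpCAM-positive libraries, and 76.0 and 20.4 CPM in hepatocyte libraries. The same 3 libraries, EpCAM-positive replicate 2 and both b-gal+ libraries, ranked highest by the sum of the 14 genes and by Hbegf. Below them the order differed: EpCAM-positive replicate 1 had less Hbegf than both b-gal- libraries but a higher sum. In the EpCAM-positive pair Hspa1a (270 and 77.3 CPM) and Hspa1b (284 and 94.9 CPM) were higher in replicate 1, opposite to Hbegf. So were Dnajb1 (178 and 97.9 CPM) and Nr4a1 (645 and 449 CPM). The other genes of the list were higher in replicate 2, as Hbegf was. The part of dissociation in the Hbegf values was not tested. Hbegf lies on chromosome 18 from 36504927 to 36515805, minus strand.

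Tgfa behaved differently from Hgf and Hbegf: it was low in b-gal+ cells and nearly level among the other 3 groups. The libraries had 4.12 and 2.62 CPM in b-gal+ cells, 34.6 and 33.4 CPM in b-gal- cells, 21.5 and 33.4 CPM in EpCAM-positive cells, and 34.6 and 33.2 CPM in hepatocytes. No b-gal+ library overlapped any other library. Tgfa was 9.09-fold lower in b-gal+ than in b-gal- cells (log2 difference -3.18, SE 0.28, limma adjusted p = 0.000991), and the largest adjusted p over the 18 alternatives was 0.0135. It was 7.21-fold lower in b-gal+ than in EpCAM-positive cells (adjusted p = 0.00162) and 9.07-fold lower in b-gal+ cells than in hepatocytes (adjusted p = 9.33e-05), also under every alternative. The difference between b-gal- cells and hepatocytes was 0.00 (95% interval -0.66 to 0.67, adjusted p = 0.994), and that between EpCAM-positive cells and hepatocytes was -0.33 (SE 0.28, adjusted p = 0.334). Both of these depend on the scale: with the authors' scaling they were 1.19 and 1.02 (adjusted p = 0.00885 and 0.0164), and with library totals 1.13 and 1.07 (adjusted p = 0.0106 and 0.0123). Endothelial marker sums were also lower in the b-gal+ than in the b-gal- libraries and were lowest in hepatocytes, and their part in the Tgfa values was not tested. Tgfa lies on chromosome 6 from 86195223 to 86275719, plus strand, and shares 118 exon bases with Gm43917 on the other strand.

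Areg and Ereg, neighbouring genes on chromosome 5, had most of their reads in the first library of each non-hepatocyte group. Areg had 1.21 and 0.241 CPM in b-gal+ cells (27 and 6 reads), 7.87 and 0.685 CPM in b-gal- cells (205 and 14 reads), and 7.60 and 0.486 CPM in EpCAM-positive cells (250 and 13 reads). Hepatocyte libraries had 0 reads, which allows up to 0.150 and 0.155 CPM of the library totals (exact 95% upper limits, counting error only). Replicate 1 exceeded replicate 2 by 5.00-fold in b-gal+ cells, 11.5-fold in b-gal- cells and 15.6-fold in EpCAM-positive cells. Reads of Ereg numbered 10 and 0 in the b-gal+ libraries, 131 and 5 in the b-gal- libraries, 71 and 0 in the EpCAM-positive libraries, and 2 and 0 in the hepatocyte libraries. In each non-hepatocyte group the first library had more reads of both genes than the second. The group means of Areg were at least 3.14-fold (b-gal+), 18.6-fold (b-gal-) and 17.5-fold (EpCAM-positive) higher than a floor of 3 reads in each hepatocyte library, a mean of 0.231 TMM-scaled CPM. These folds rest mainly on the first libraries, and the second libraries (0.241, 0.685 and 0.486 CPM) lay much nearer to the floor. The limma differences from hepatocytes, in the same order of groups, were 1.17 (adjusted p = 0.439), 2.66 (adjusted p = 0.0910) and 2.50 (adjusted p = 0.108), each with an SE of 1.19. Over the alternatives the adjusted p of Areg against hepatocytes ran between 0.0165 and 0.812 for b-gal+ cells, between 0.000379 and 0.435 for b-gal- cells, and between 0.000414 and 0.512 for EpCAM-positive cells. For Ereg the differences against hepatocytes were 0.27 (adjusted p = 0.852), 1.83 (adjusted p = 0.177) and 1.02 (adjusted p = 0.438), each with an SE of 1.08. Over the alternatives the adjusted p of Ereg ran between 0.654 and 0.979 for b-gal+ cells, between 0.0323 and 0.776 for b-gal- cells, and between 0.138 and 0.908 for EpCAM-positive cells.

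Marker genes of recruited myeloid cells had a similar imbalance between the b-gal- and between the EpCAM-positive replicates, and in part between the b-gal+ replicates. Summed over 5 neutrophil markers, the libraries had 206 and 163 CPM in b-gal+ cells, 352 and 40.0 CPM in b-gal- cells, 325 and 30.3 CPM in EpCAM-positive cells, and 6.94 and 3.19 CPM in hepatocytes. Among them S100a8, a calcium-binding alarmin of neutrophils, had 29.6 and 2.41 CPM, 83.2 and 3.13 CPM, 92.3 and 2.88 CPM, and 1.85 and 0.479 CPM in the same groups. In the b-gal+ pair Csf3r was higher in replicate 2 (101 and 143 CPM), while the other neutrophil markers were higher in replicate 1. All 5 had more than 3 reads in every non-hepatocyte library. Summed over 5 monocyte markers, b-gal+ libraries had 3230.2 and 381 CPM, b-gal- libraries 8766 and 1093 CPM, EpCAM-positive libraries 4709 and 1113 CPM, and hepatocyte libraries 6093 and 5849 CPM. The fibronectin gene Fn1 made up most of this sum in every library, with 3018 and 329 CPM in b-gal+ cells, 8117 and 973 CPM in b-gal- cells, 4256 and 1029.7 CPM in EpCAM-positive cells, and 6086 and 5846 CPM in hepatocytes. The monocyte chemokine receptor gene Ccr2 had 105 and 42.3 CPM in b-gal+ cells, 378 and 103 CPM in b-gal- cells, 243 and 58.6 CPM in EpCAM-positive cells, and 4.36 and 1.84 CPM in hepatocytes. Areg is also known as a product of innate lymphoid cells, mast cells and T cells. The sum over 4 markers of type 2 innate lymphoid cells was 13.6 and 18.3 CPM in b-gal+ cells, 25.7 and 35.5 CPM in b-gal- cells, 59.8 and 141 CPM in EpCAM-positive cells, and 163 and 167 CPM in hepatocytes. Of this sum the nuclear receptor gene Rora made up 30.3 and 127 CPM in EpCAM-positive cells and 163 and 166 CPM in hepatocytes. In the EpCAM-positive pair the other markers were higher in replicate 1, as Areg was: Il1rl1 had 11.2 and 5.99 CPM, Gata3 3.56 and 2.32 CPM, and Il7r 14.8 and 5.95 CPM. In the b-gal- pair the same markers were higher in replicate 2, opposite to Areg: Il1rl1 had 2.15 and 2.64 CPM, Gata3 0.230 and 1.52 CPM, and Il7r 4.95 and 8.27 CPM. In the b-gal+ pair Il1rl1 was higher in replicate 1, and Gata3 and Il7r were higher in replicate 2. Mast cell and basophil markers summed to 4.47 and 4.63 CPM, 37.7 and 48.5 CPM, 19.6 and 19.0 CPM, and 1.26 and 1.84 CPM in the same groups, mostly from Gata2, which endothelium also expresses. Markers of T and natural killer cells summed to at most 19.7 CPM in any library, those of mesothelium to at most 69.0 CPM and those of dendritic cells to at most 572 CPM, the last in EpCAM-positive replicate 1. The part of these cells in the Areg and Ereg values was not tested. Areg lies at 91139599 to 91148432 and Ereg at 91074622 to 91093646, both on the plus strand. Ereg shares 141 exon bases with the antisense gene Gm19610, and the sources used here do not state whether reads were counted by strand.

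**Figure D2:**
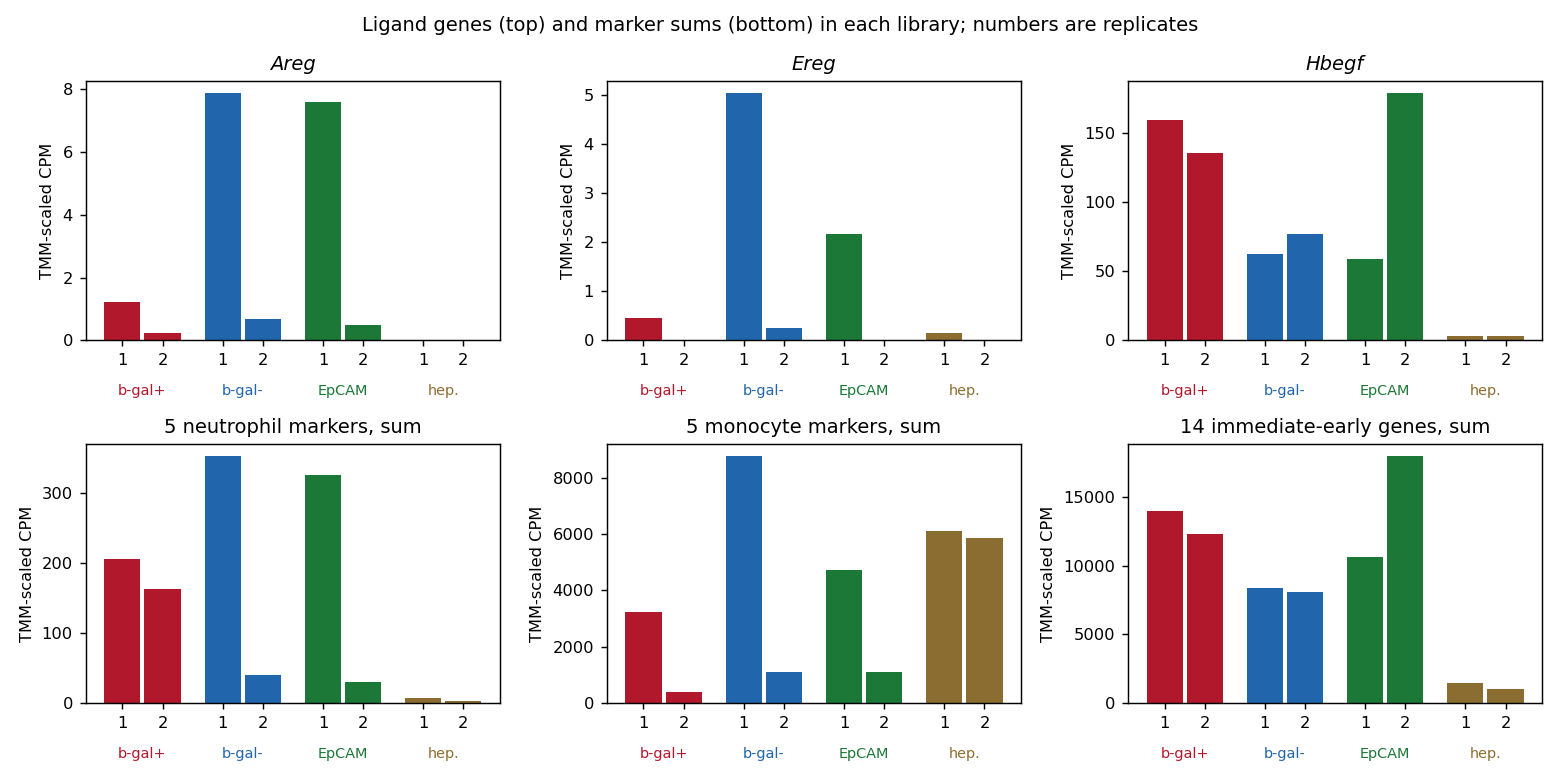
TMM-scaled CPM in each library for the ligand genes Areg, Ereg and Hbegf (upper row) and for the sums of 5 neutrophil markers, 5 monocyte markers and 14 immediate-early genes (lower row), with bars numbered by replicate. In the b-gal- and EpCAM-positive groups the first Areg and Ereg bar stands above the second, as do the neutrophil and monocyte sums, while Hbegf and the immediate-early sum are highest in EpCAM-positive replicate 2 and lowest in hepatocytes.

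Met, the HGF receptor gene, was highest in hepatocytes, intermediate in EpCAM-positive cells and lowest in both F4/80high groups. It had 1.48 and 2.29 CPM in b-gal+ cells, 3.42 and 1.52 CPM in b-gal- cells, 32.5 and 75.1 CPM in EpCAM-positive cells, and 227 and 221 CPM in hepatocytes. The 2 F4/80high groups overlapped each other and no other group. Against hepatocytes, Met was 95.7-fold lower in b-gal+ cells (limma adjusted p = 3.92e-05) and 80.0-fold lower in b-gal- cells (adjusted p = 4.19e-05) under all alternatives. In EpCAM-positive cells it was 4.50-fold lower than in hepatocytes (adjusted p = 0.00608), a call that was lost with the authors' scaling (adjusted p = 0.167) and with library totals (adjusted p = 0.189). Met was 21.3-fold lower in b-gal+ than in EpCAM-positive cells (adjusted p = 0.00182). Met lies on chromosome 6 from 17463800 to 17573980, plus strand.

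Egfr, the receptor gene for all 4 EGF-type ligands named here, had the largest difference of the 9 genes. Its libraries had 2.82 and 1.73 CPM in b-gal+ cells, 2.96 and 1.96 CPM in b-gal- cells, 9.30 and 21.3 CPM in EpCAM-positive cells, and 1237 and 649.9 CPM in hepatocytes. The hepatocyte libraries lay far above the others, and the F4/80high groups overlapped. Egfr was 329.8-fold lower in b-gal+ cells (limma adjusted p = 1.74e-05), 308-fold lower in b-gal- cells (adjusted p = 1.75e-05) and 61.4-fold lower in EpCAM-positive cells (adjusted p = 7.94e-05) than in hepatocytes, under every alternative. Between b-gal+ and b-gal- cells the difference was -0.10 with an SE of 0.48 (adjusted p = 0.917). Egfr was 5.37-fold lower in b-gal+ than in EpCAM-positive cells (adjusted p = 0.00991), but without b-gal+ replicate 2 the adjusted p was 0.0705. It lies on chromosome 11 from 16752203 to 16918158, plus strand.

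Erbb3, the neuregulin receptor gene, was also highest in hepatocytes and, unlike Met and Egfr, differed in level between the F4/80high groups without overlap. It had 10.2 and 9.78 CPM in b-gal+ cells, 2.88 and 1.08 CPM in b-gal- cells, 13.3 and 56.7 CPM in EpCAM-positive cells, and 257 and 270.0 CPM in hepatocytes. Set against b-gal- cells, b-gal+ cells differed by 2.18 on the log2 scale (SE 0.65), with an adjusted p of 0.0530 that ranged between 0.00349 and 0.276 over the alternatives, so it was not called. Against hepatocytes Erbb3 was 25.2-fold lower in b-gal+ cells (limma adjusted p = 0.000798), 114-fold lower in b-gal- cells (adjusted p = 0.000123) and 9.39-fold lower in EpCAM-positive cells (adjusted p = 0.00447), under all 18 alternatives. It lies on chromosome 10 from 128567523 to 128589652, minus strand.

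In the EpCAM-positive pair, replicate 2 had the higher value of Met, Egfr and Erbb3. The same library had the higher sum of hepatocyte markers (4952 against 697 CPM in replicate 1) and of cholangiocyte markers (6274 against 2006 CPM). Alb made up most of the hepatocyte sum, with 652 and 4705 CPM in this pair against 126496 and 202856 CPM in hepatocytes. Apoa1 had 1.88 and 11.6 CPM in this pair against 6703 and 6244 CPM in hepatocytes. Cps1 had 0.213 and 15.3 CPM against 10105 and 15660 CPM. For comparison, the cholangiocyte marker sum was 658 and 55.3 CPM in b-gal+ cells, 1268 and 82.7 CPM in b-gal- cells, and 135 and 18.4 CPM in hepatocytes. Hepatocyte markers summed to 251 and 632 CPM in b-gal+ cells, 153 and 363 CPM in b-gal- cells, and 157247 and 246396 CPM in hepatocytes. Epcam had 0 reads in b-gal+ replicate 1, all 6 hepatocyte markers had at least 1 read in every library, and the part of these markers in the receptor values was not tested. Without EpCAM-positive replicate 1 or replicate 2, the log2 differences between EpCAM-positive cells and hepatocytes were -1.58 and -2.77 for Met, -2.21 and -4.25 for Erbb3, 4.51 and 3.03 for Erbb2, and 5.59 and 4.01 for Hbegf. Left out in the same way, they gave -3.41 and -1.94 for Erbb2 in b-gal+ against EpCAM-positive cells and -4.61 and -2.56 for Erbb3 in b-gal- against EpCAM-positive cells. Without replicate 2, Egfr was -1.83 and Met -3.79 in b-gal+ cells, and Egfr was -1.74 and Met -3.54 in b-gal- cells, each against EpCAM-positive cells.

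Erbb2, the receptor gene that partners with the others, ran against them: it was lowest in hepatocytes and high in b-gal- and EpCAM-positive cells. The libraries had 4.92 and 4.35 CPM in b-gal+ cells, 32.3 and 51.5 CPM in b-gal- cells, 19.3 and 54.7 CPM in EpCAM-positive cells, and 1.48 and 2.40 CPM in hepatocytes. The b-gal- and EpCAM-positive libraries overlapped, and both lay above every b-gal+ and hepatocyte library. Erbb2 was 17.2-fold higher in b-gal- cells (limma adjusted p = 0.000411) and 13.8-fold higher in EpCAM-positive cells (adjusted p = 0.000693) than in hepatocytes, under every alternative. The b-gal+ value differed from hepatocytes by 1.10 on the log2 scale (SE 0.50, adjusted p = 0.102), and it was called with the authors' scaling (adjusted p = 0.0138), with library totals (adjusted p = 0.0155), in a fit of only the 2 groups (adjusted p = 0.0205) and without the first or the second EpCAM-positive library (adjusted p = 0.0274 and 0.0262). Erbb2 was 8.05-fold lower in b-gal+ than in b-gal- cells (adjusted p = 0.00688), but the adjusted p was 0.0553 without b-gal+ replicate 2 and 0.0587 without b-gal- replicate 2. It was 6.45-fold lower in b-gal+ than in EpCAM-positive cells (adjusted p = 0.00835), with an adjusted p of 0.0581 without b-gal+ replicate 2. Endothelial marker sums were likewise higher in the b-gal- and EpCAM-positive libraries than in the b-gal+ and hepatocyte libraries, and their part in the Erbb2 values was not tested. Erbb2 lies on chromosome 11 from 98412470 to 98437716, plus strand, and shares 9 exon bases with Mien1 on the other strand, which averaged 33.8 CPM.

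Levels of different genes were compared as mean CPM per kilobase of exon, the union over the GENCODE M21 transcripts of a gene. In b-gal+ cells Hbegf stood first at 30.6 ± 3.51 CPM per kb and Hgf second at 7.49 ± 1.58, followed by Erbb3 at 1.66 ± 0.0445 (SD, n = 2 each). In b-gal- cells Hgf (17.2 ± 3.28 CPM per kb) and Hbegf (14.4 ± 2.17) led, and their ranges overlapped, ahead of Erbb2 (8.04 ± 2.61) and Tgfa (5.23 ± 0.130). In EpCAM-positive cells Hbegf stood first at 24.6 ± 17.5 CPM per kb, and Erbb2, Met, Hgf and Erbb3 followed at 7.10, 7.01, 6.76 and 5.82, with overlapping ranges and no order that exceeds their spread. Hepatocytes had the receptor genes on top: Egfr at 83.3 ± 36.7 CPM per kb, Erbb3 at 43.8 ± 1.51 and Met at 29.2 ± 0.537. The ligand gene Tgfa came next in hepatocytes at 5.22 ± 0.147 CPM per kb, while Hgf (1.70), Hbegf (0.659) and Erbb2 (0.372) were low. With the length of the longest transcript in place of the union, Hgf moved to rank 2 and Erbb2 to rank 4 in EpCAM-positive cells, other genes moved by at most 1 rank, and the first gene of each group stayed the same.

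**Figure D3:**
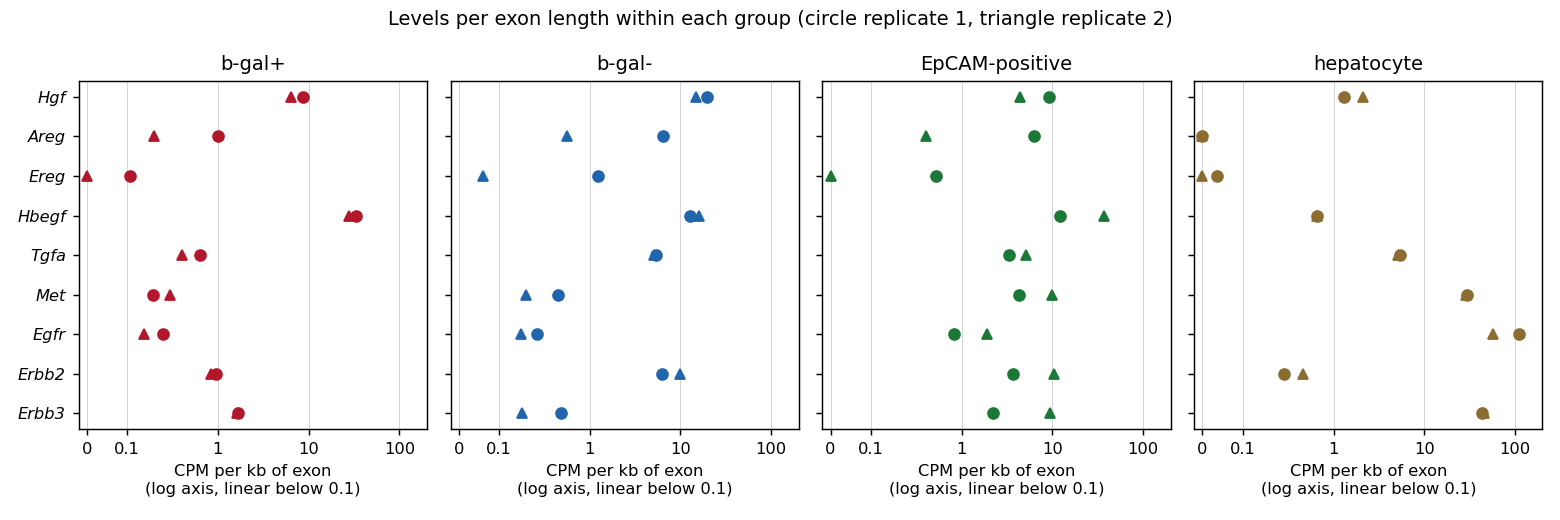
TMM-scaled CPM per kilobase of exon of the 9 genes in each group, on a logarithmic axis that is linear below 0.1, with a circle for replicate 1 and a triangle for replicate 2. Ligand genes lead in the b-gal+, b-gal- and EpCAM-positive groups (Hbegf at 30.6 and Hgf at 17.2 CPM per kb in the F4/80high groups), and Egfr, Erbb3 and Met lead in hepatocytes.

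In b-gal+ against b-gal- cells, 2 of the 9 genes, Erbb2 and Tgfa, were called lower, beside 13.0% of the 14404 genes tested. None was called higher with limma, beside 10.4% of all genes. At an unadjusted p under 0.05 limma had 1 higher (Erbb3), edgeR called 0 and DESeq2 called 1. The groups did not overlap for 5 of the 9 genes (Hgf, Erbb2, Erbb3, Hbegf and Tgfa), beside 69.0% of all genes. The median log2 difference of the 9 was -1.19, against -0.02 for all genes. The number of the 9 called depended on single libraries: it was 1 without b-gal+ replicate 2 or without b-gal- replicate 2, and 5 without either EpCAM-positive library.

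In each of the other groups the ligand genes Hgf and Hbegf were higher and the receptor genes Met, Egfr and Erbb3 lower than in hepatocytes. In b-gal+ cells 2 of the 9 were called higher (Hgf and Hbegf), beside 29.5% of all genes, and 4 lower (Met, Egfr, Erbb3 and Tgfa), beside 29.6%. In b-gal- cells 3 were higher (Hgf, Hbegf and Erbb2), beside 33.5%, and 3 lower (Met, Egfr and Erbb3), beside 29.7%. In EpCAM-positive cells the same 3 were higher, beside 33.5%, and the same 3 lower, beside 29.1%. The groups did not overlap for 8, 8 and 7 of the 9 genes in the b-gal+, b-gal- and EpCAM-positive comparisons, beside 82.4%, 86.2% and 80.8% of all genes. The median log2 difference of the 9 was 0.27, 1.83 and 1.02 in these comparisons, against 0.10, 0.17 and 0.15 for all genes. The 3 comparisons share the hepatocyte libraries, so their values are given side by side only.

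Against EpCAM-positive cells the calls were all on the lower side. In b-gal+ cells 4 of the 9 were lower (Met, Egfr, Erbb2 and Tgfa), beside 17.9% of all genes. None was higher with limma, beside 14.7% of all genes, nor were any with edgeR or DESeq2 or at an unadjusted p under 0.05 (0 in each case). The count was 2 without b-gal+ replicate 2. In b-gal- cells 3 were lower, beside 6.57% of all genes: Met by 17.8-fold (limma adjusted p = 0.0172), Egfr by 5.01-fold (adjusted p = 0.0291) and Erbb3 by 12.2-fold (adjusted p = 0.0223). None was higher, beside 5.63%, with 1 (Hgf) at an unadjusted p under 0.05, 0 called by edgeR and 1 by DESeq2. The 3 calls changed with single libraries: the number of the 9 called was 0 without either b-gal- library, without hepatocyte replicate 2 and in a fit of only the 2 groups, 1 without b-gal+ replicate 1 or hepatocyte replicate 1, and 5 without EpCAM-positive replicate 1. The groups did not overlap for 5 of the 9 genes in the b-gal+ comparison, beside 66.1% of all genes, and for 4 in the b-gal- comparison, beside 55.7%. The median log2 differences of the 9 were -1.43 and 0.16, against -0.03 and 0.07 for all genes. For Hgf the log2 difference from EpCAM-positive cells was 0.23 (adjusted p = 0.709) in b-gal+ cells and 1.42 (adjusted p = 0.0614) in b-gal- cells. For Hbegf it was 0.51 (adjusted p = 0.444) and -0.57 (adjusted p = 0.473).

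**Figure D4:**
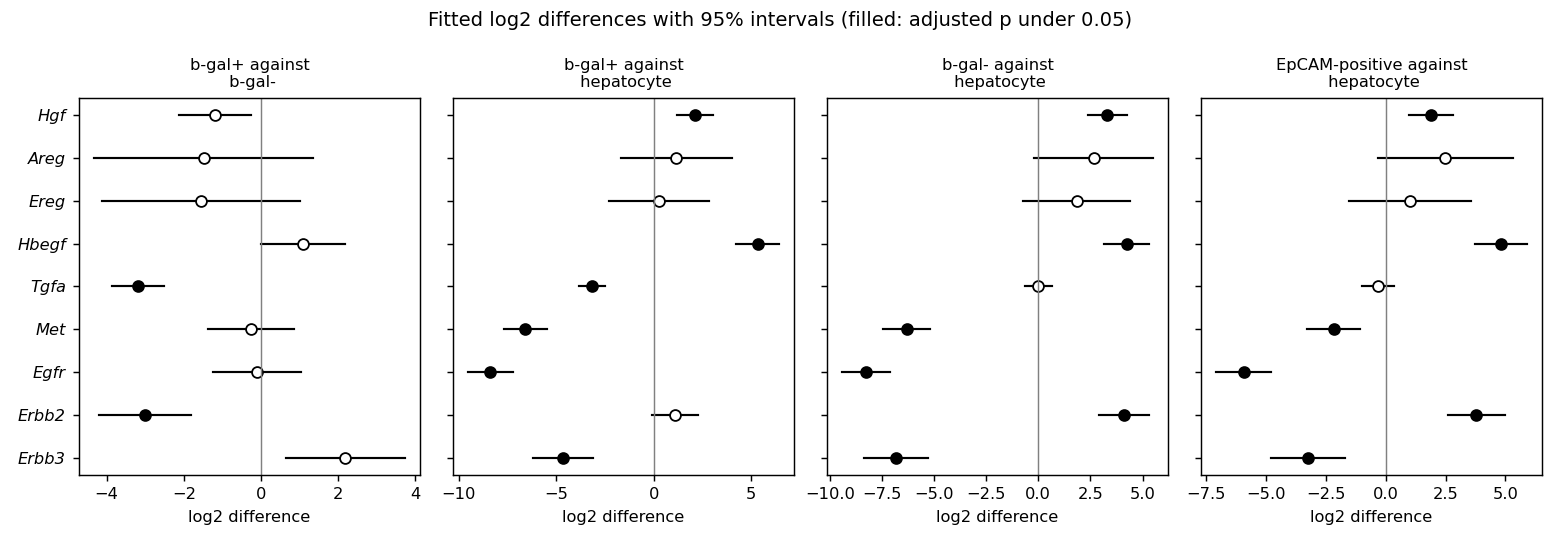
Limma log2 differences of the 9 genes with 95% intervals (horizontal bars) in 4 comparisons, each panel named with its first group over its second and with filled points for called genes (adjusted p under 0.05). In b-gal+ against b-gal- cells the intervals of Tgfa (-3.18) and Erbb2 (-3.01) lie below 0 and are called; against hepatocytes Hgf and Hbegf lie above 0 and Met, Egfr and Erbb3 below 0 in all 3 panels.

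The remaining ligands of the EGF family were counted at low levels. Of 7 genes listed, 5 passed the filter. Btc (betacellulin) had 6.57 ± 5.85 CPM in EpCAM-positive cells and 9.26 ± 0.792 CPM in hepatocytes, with means under 0.1 CPM in both F4/80high groups, and was called lower in b-gal+ and b-gal- cells than in hepatocytes. Nrg4, a neuregulin that binds ERBB4, was called lower than in hepatocytes (9.92 ± 4.77 CPM) in b-gal+ cells (2.43 ± 0.656 CPM), b-gal- cells (1.63 ± 0.0877 CPM) and EpCAM-positive cells (1.42 ± 0.421 CPM), but for b-gal+ cells the adjusted p reached 0.109 over the alternatives (lost with the authors' scaling, with library totals and without b-gal+ replicate 1). Nrg2 had 2.95 ± 1.21 CPM in EpCAM-positive cells and was listed at 0 in hepatocytes. In b-gal+ against b-gal- cells limma called 0 of the 5, as did edgeR and DESeq2, and 0 had an unadjusted p under 0.05. Of all genes, limma called 10.4% higher and 13.0% lower there. Against hepatocytes the list had 2, 2 and 1 lower calls in b-gal+, b-gal- and EpCAM-positive cells, beside 29.6%, 29.7% and 29.1% of all genes. It had 1 higher call in EpCAM-positive cells, beside 33.5%.

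Of the 3 close relatives of the receptors and of HGF, Mst1, which encodes the HGF-like macrophage stimulating protein, was a hepatocyte transcript. It averaged 1.04 ± 0.108 CPM in b-gal+ cells, 0.835 ± 0.203 CPM in b-gal- cells, 1.03 ± 0.299 CPM in EpCAM-positive cells and 526 ± 78.9 CPM in hepatocytes, and was called lower in each group than in hepatocytes. Erbb4, the remaining member of the EGF receptor family, was counted mainly in EpCAM-positive cells, with 69 and 207 reads there, 1 and 3 reads in b-gal- cells and 0 reads in the b-gal+ and hepatocyte libraries, and was called higher in EpCAM-positive cells than in hepatocytes (limma adjusted p = 0.00152). Between b-gal+ and b-gal- cells 0 of the 3 were called by limma, edgeR or DESeq2, and 0 had an unadjusted p under 0.05. Limma called 10.4% of all genes higher and 13.0% lower there.

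Genes for the activation of pro-HGF were called in both directions. Of 11 genes tested, 3 were higher and 7 lower in b-gal+ cells than in hepatocytes, beside 29.5% and 29.6% of all genes. In b-gal- cells 4 were higher and 7 lower, beside 33.5% and 29.7%. In EpCAM-positive cells 4 were higher and 7 lower, beside 33.5% and 29.1%. The medians of the list were -7.42, -7.64 and -6.45 on the log2 scale in the same order. The lower side held mainly blood proteases known as hepatocyte products. Plg (plasminogen) averaged 26.6 ± 9.03 CPM in b-gal+ cells, 15.1 ± 4.94 CPM in b-gal- cells and 8772 ± 399 CPM in hepatocytes, with 8.24 and 23.8 CPM in the EpCAM-positive libraries, and was 333-, 578- and 601-fold lower in b-gal+, b-gal- and EpCAM-positive cells than in hepatocytes. F2 (prothrombin) averaged 18.6 ± 2.59, 19.8 ± 3.17, 10.3 ± 4.50 and 4683 ± 511 CPM in b-gal+, b-gal- and EpCAM-positive cells and hepatocytes, and F12 (coagulation factor XII) 2.91 ± 1.52, 1.28 ± 0.127, 1.86 ± 2.03 and 1124 ± 190 CPM. In the same groups the HGF activator gene Hgfac had 1.01 ± 0.613, 1.19 ± 0.324, 7.88 ± 6.37 and 621 ± 75.5 CPM. The hepsin gene Hpn had 21.4 ± 11.2, 4.37 ± 0.258, 68.7 ± 68.1 and 973 ± 40.2 CPM.

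On the other side, Plau, which encodes the urokinase-type plasminogen activator, averaged 88.0 ± 15.6 CPM in b-gal+ cells, 31.6 ± 11.8 CPM in b-gal- cells, 15.9 ± 7.58 CPM in EpCAM-positive cells and 1.24 ± 0.285 CPM in hepatocytes. It was the 1 gene of the list called in b-gal+ against b-gal- cells, 2.84-fold higher (limma adjusted p = 0.0360). Of all genes, 10.4% were called higher and 13.0% lower there. The Plau call was lost in 6 of the 18 alternatives, among them the fits that left out either b-gal+ library, the second b-gal- library or either hepatocyte library. St14, the matriptase gene, had 83.9 ± 71.4 CPM in EpCAM-positive cells and 0 reads in both hepatocyte libraries. Among 5 tested genes for inhibitors of these proteases, Spint2, a membrane-bound inhibitor of HGF activator, averaged 6.29 ± 0.591 CPM in b-gal+ cells, 56.3 ± 7.11 CPM in b-gal- cells, 129 ± 61.0 CPM in EpCAM-positive cells and 185 ± 10.6 CPM in hepatocytes. It was 8.35-fold lower in b-gal+ than in b-gal- cells (adjusted p = 0.00136, at most 0.0160 over the alternatives). Serpinf2 (alpha-2-antiplasmin) was 2.37-fold higher in b-gal+ than in b-gal- cells (12.9 ± 0.828 against 5.17 ± 0.577 CPM, adjusted p = 0.0340), a call lost in 9 of the 18 alternatives, among them each fit without 1 of the b-gal+, b-gal- or hepatocyte libraries. Hepatocytes had 2919 ± 29.0 CPM of Serpinf2. Hepatocyte markers, mostly Alb, summed to 251 and 632 CPM in b-gal+ and 153 and 363 CPM in b-gal- libraries. Their part in the Serpinf2 values was not tested. Against hepatocytes the inhibitor list had 1 higher and 3 lower calls for b-gal+ cells, 2 higher and 3 lower for b-gal- cells, and 2 higher and 2 lower for EpCAM-positive cells. Of all genes, 29.5%, 33.5% and 33.5% were called higher in these groups and 29.6%, 29.7% and 29.1% lower.

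The release of EGF-type ligands from the membrane was followed through 10 genes for ADAM proteases, their iRhom partners and regulators. Of these, 7 were called higher in b-gal+ cells than in hepatocytes (beside 29.5% of all genes). In b-gal- cells 8 were called higher (beside 33.5%), and in EpCAM-positive cells 7 (beside 33.5%). With the authors' scaling and with library totals 9, 10 and 9 were higher and 0 lower. Timp3 was called higher in each group, but its call in b-gal+ cells was lost without either b-gal+ library or hepatocyte replicate 1. With TMM, Adam9 was lower in EpCAM-positive cells than in hepatocytes (limma adjusted p = 0.0124), a call that was lost, with the sign turned, under both of these scales. Adam10 averaged 562 ± 23.5, 385 ± 72.5, 202 ± 68.6 and 74.5 ± 7.07 CPM in b-gal+, b-gal- and EpCAM-positive cells and hepatocytes, and was 7.51-, 5.11- and 2.63-fold higher in the first 3 groups. Adam17, the main sheddase of Areg, Hbegf and Tgfa, averaged 426 ± 1.23, 167 ± 32.8, 96.6 ± 35.2 and 73.3 ± 16.5 CPM in the same groups. In b-gal+ against b-gal- cells the list had 2 higher and 5 lower calls, beside 10.4% and 13.0% of all genes. Adam17 was 2.57-fold higher in b-gal+ cells (limma adjusted p = 0.0171), but not called without either b-gal+ library or without the second b-gal- library (adjusted p up to 0.122). Timp3, which encodes an inhibitor of ADAM17, was 9.87-fold lower in b-gal+ than in b-gal- cells (adjusted p = 0.00171, at most 0.0188 over the alternatives), with means of 60.6 ± 0.0824 CPM in b-gal+ cells, 623 ± 222 CPM in b-gal- cells, 258 ± 54.7 CPM in EpCAM-positive cells and 22.7 ± 10.5 CPM in hepatocytes. Adam15 was 2.53-fold lower in b-gal+ than in b-gal- cells (adjusted p = 0.0390), a call lost in 6 of the 18 alternatives, among them those without any 1 of the 4 libraries compared or without EpCAM-positive replicate 1. Endothelial marker sums were likewise highest in b-gal- and lowest in hepatocyte libraries, and the part of endothelial RNA in the Timp3 values was not tested.

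Of 16 tested genes for negative regulators of the receptors, 9 were higher and 3 lower in b-gal+ cells, 13 higher and 2 lower in b-gal- cells, and 11 higher and 3 lower in EpCAM-positive cells than in hepatocytes. Of all genes, 29.5%, 33.5% and 33.5% were higher and 29.6%, 29.7% and 29.1% lower. With the authors' scaling and with library totals 12, 14 and 13 were higher and 2, 2 and 0 lower. On the lower side was Errfi1, which encodes an inhibitor that binds the EGF receptor kinase: it averaged 28.9 ± 1.81, 28.2 ± 4.93, 525 ± 471 and 2773 ± 175 CPM in b-gal+, b-gal- and EpCAM-positive cells and hepatocytes, and was 94.3-, 97.3- and 6.82-fold lower in the first 3 groups. The EpCAM-positive call was lost with the authors' scaling and with library totals (adjusted p up to 0.0830). In b-gal+ against b-gal- cells 2 regulators were higher and 6 lower with TMM, beside 10.4% and 13.0% of all genes. Under both other scales 0 were higher and 7 lower. Spry4, a Sprouty inhibitor of receptor tyrosine kinase signalling, was 9.24-fold lower in b-gal+ than in b-gal- cells (11.2 ± 3.39 against 106 ± 1.97 CPM, limma adjusted p = 0.000908, at most 0.0130 over the alternatives). The phosphatase genes Ptpn1 and Dusp6 were 3.50-fold (adjusted p = 0.0497) and 1.71-fold (adjusted p = 0.0439) higher in b-gal+ than in b-gal- cells, and these calls were lost in 11 and 7 of the 18 alternatives, each without any 1 of the 4 libraries compared and Ptpn1 also without either hepatocyte library.

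The counts of adaptors that carry the receptor signal depended on the scale. Of 15 genes tested, 4 were higher and 3 lower in b-gal+ than in b-gal- cells, beside 10.4% and 13.0% of all genes. Against hepatocytes 5 were higher and 5 lower in b-gal+ cells, beside 29.5% and 29.6% of all genes. In b-gal- cells 8 were higher and 1 lower, beside 33.5% and 29.7%, and in EpCAM-positive cells 5 higher and 4 lower, beside 33.5% and 29.1%. With the authors' scaling and with library totals 11, 12 and 13 were higher and 0 lower in these 3 groups. Among them the phosphatase gene Ptpn11, lower with TMM in b-gal+ and EpCAM-positive cells (limma adjusted p = 0.0267 and 0.0474), was called higher with the authors' scaling (adjusted p = 0.00697 and 0.000613), and the lower call of Stat3 in EpCAM-positive cells was lost (adjusted p = 0.419). Grb2, the adaptor that links receptors to the RAS pathway, was 2.61-fold higher in b-gal+ than in b-gal- cells (292 ± 20.0 against 111 ± 8.49 CPM, limma adjusted p = 0.00858), but not called without the second library of either group (adjusted p up to 0.0687). Pik3r1 was 1.90-fold higher and Crk 1.64-fold lower in b-gal+ than in b-gal- cells (adjusted p = 0.0121 and 0.0108), and these calls were lost in 3 and 4 of the 8 fits that leave out a library (Pik3r1 without b-gal+ replicate 2 or either b-gal- library, Crk without any 1 of the 4 compared).

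Among 6 genes for membrane partners of MET, the neuropilin genes Nrp1 and Nrp2, which encode co-receptors of HGF and vascular growth factors, were lower in b-gal+ than in b-gal- cells. Nrp1 averaged 323 ± 49.9, 1786 ± 219, 680 ± 83.0 and 224 ± 2.83 CPM in b-gal+, b-gal- and EpCAM-positive cells and hepatocytes, and was 5.54-fold lower in b-gal+ than in b-gal- cells (limma adjusted p = 0.00108). Nrp2 averaged 115 ± 14.8, 837 ± 56.9, 305 ± 44.1 and 49.4 ± 31.9 CPM and was 7.24-fold lower (adjusted p = 0.00412). Both calls were made under all 18 alternatives. Endothelial marker sums were likewise highest in b-gal- and lowest in hepatocyte libraries, and their part in the Nrp1 and Nrp2 values was not tested. Plxnb2, a plexin that associates with MET, was 2.61-fold higher in b-gal+ than in b-gal- cells (907 ± 237 against 348 ± 103 CPM, adjusted p = 0.0152), but not called without the first b-gal+ or the second b-gal- library (adjusted p up to 0.120). Against hepatocytes the list had 2 higher and 2 lower calls in b-gal+ cells, and 3 and 2 in both b-gal- and EpCAM-positive cells. Of all genes, 29.5%, 33.5% and 33.5% were called higher in b-gal+, b-gal- and EpCAM-positive cells and 29.6%, 29.7% and 29.1% lower. The adhesion receptor gene Cd44 averaged 684 ± 170 CPM in b-gal+ cells and 8.54 ± 3.49 CPM in hepatocytes, and the syndecan gene Sdc1 averaged 6.67 ± 0.00915 CPM in b-gal+ cells and 995 ± 176 CPM in hepatocytes.

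Against hepatocytes the immediate-early and heat-shock list had 14 of 14 genes higher in b-gal+, 13 in b-gal- and 14 in EpCAM-positive cells. Of all genes, 29.5%, 33.5% and 33.5% were called higher. The medians were 3.93, 3.46 and 4.09 on the log2 scale, against 0.10, 0.17 and 0.15 for all genes. In b-gal+ against b-gal- cells 2 of 14 were higher, beside 10.4% of all genes. Btg2 was 2.57-fold higher (limma adjusted p = 0.00588), a call lost without b-gal- replicate 2. Ier2 was 2.21-fold higher (adjusted p = 0.0198), a call lost without any 1 of the 4 libraries compared.

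**Figure D5:**
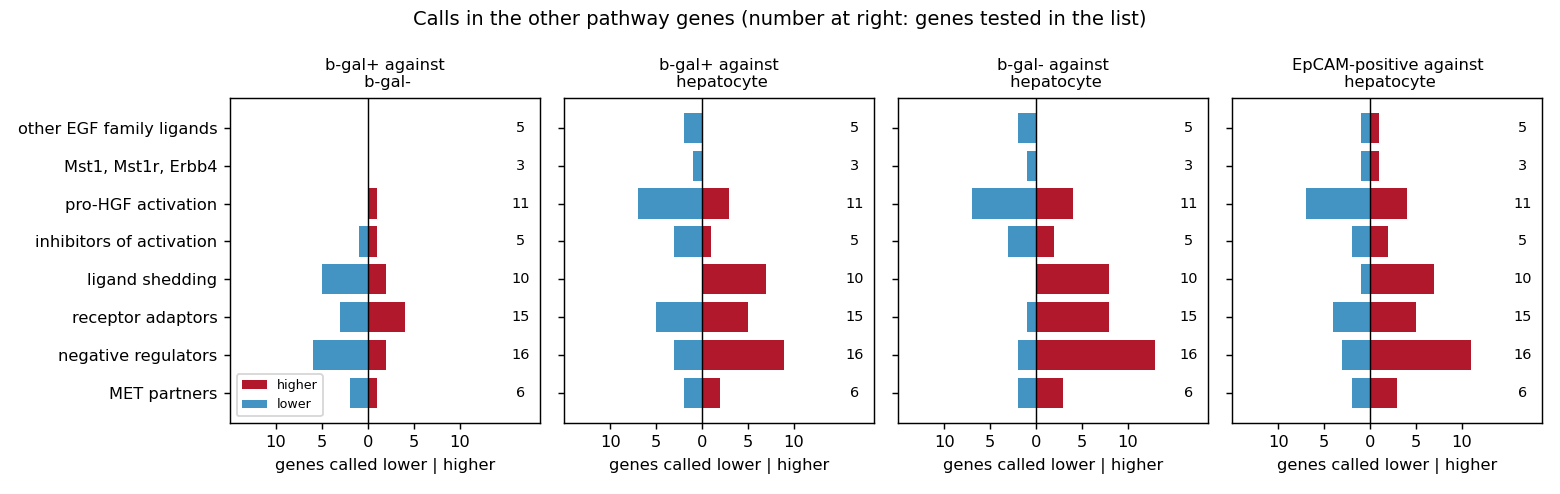
Number of genes of each pathway list called higher (red, right) or lower (blue, left) in 4 comparisons, with the number of genes tested at the right edge of each panel. Ligand-shedding genes and negative regulators extend to the right against hepatocytes (7, 8 and 7 of 10, and 9, 13 and 11 of 16), and pro-HGF activation genes extend to the left (7 of 11 in each group). Against hepatocytes 29.5% to 33.5% of all genes were called higher and 29.1% to 29.7% lower.

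For each of the 9 genes, the 3 genes with the most similar pattern were taken by Pearson correlation of log2 CPM over the 8 libraries, among 11025 candidate genes that averaged 5 CPM or more. With 4 groups of 2 libraries these values mostly reflect group means. The gene most like Hgf was Tnfrsf23 (r = 0.997), followed by Atxn7l1 and Asap1. Met was most like Mob3b, Itfg2 and the tight-junction gene Cldn2 (r = 0.994, 0.994 and 0.992). Egfr was most like Scrn2, Upb1 and the thrombopoietin gene Thpo (r = 0.998, 0.997 and 0.997), Erbb2 was most like the laminin gene Lama5, Ptpn14 and Nlgn2 (r = 0.995 for each), and Erbb3 was most like Ggct, Hdac11 and Reps2 (r = 0.991, 0.988 and 0.987). Hbegf was most like Zfp677, Myl6 and B4galt6 (r = 0.993, 0.993 and 0.989). For Tgfa they were the ubiquitin ligase gene Nedd4 (r = 0.997), Atp9a and Ptprg. Nedd4 averaged 92.4 ± 29.3 CPM in b-gal+ cells, 695 ± 15.7 CPM in b-gal- cells, 490 ± 148 CPM in EpCAM-positive cells and 638 ± 15.6 CPM in hepatocytes, low in b-gal+ cells and near level elsewhere, as Tgfa was.

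Areg and Ereg, which correlated with each other at r = 0.942, had neighbours that were also higher in replicate 1 of each non-hepatocyte group. For Areg these were the proteoglycan gene Vcan, Rrm1 and the metalloprotease inhibitor gene Timp1 (r = 0.970, 0.966 and 0.964), of which Vcan is also in the monocyte marker list. Vcan had 10.9 and 2.21 CPM in b-gal+ cells, 75.6 and 5.04 CPM in b-gal- cells, 32.2 and 3.85 CPM in EpCAM-positive cells, and 0.739 and 0.319 CPM in hepatocytes. For Ereg they were Ero1l (r = 0.952) and the neutrophil granule genes Ltf and Ngp (r = 0.925 and 0.919). Ngp had 9.13 and 0.161 CPM in b-gal+ cells, 30.7 and 1.22 CPM in b-gal- cells, 46.7 and 0.486 CPM in EpCAM-positive cells, and 0.886 and 0 CPM in hepatocytes. The imbalance was much smaller for Rrm1 and Ero1l. Replicate 1 exceeded replicate 2 by 1.37-, 1.34- and 1.88-fold for Rrm1 in b-gal+, b-gal- and EpCAM-positive cells. For Ero1l it did so by 1.69-, 1.94- and 2.05-fold.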

How the data were processed

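Total RNA of 8 libraries was sequenced by the submitters, who counted reads per gene with HTSeq on GRCm38.p4/mm10, per the submitters' processing notes. The aligner, annotation, versions and scaling are not given in the sources used here. In the table of hepatocyte replicate 1 the authors deposited whole read counts, and the 7 other deposited tables hold, on another scale, counts times 1 factor per library (1.08 to 1.54, found from the values). Dividing by that factor returned whole reads for 100% of values (within 0.01 reads). The tests were therefore run on recovered reads and not on the authors' scaled values. In every table, rows with dates in place of symbols were left out (14 rows, 0.0514% to 0.182% of reads).

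Genes were filtered with filterByExpr and scaled by TMM (edgeR 4.0.16), and limma 3.58.1 with a mean-variance trend was fitted in R 4.3.3 to log2(CPM + 0.5) of all 8 libraries (4 residual degrees of freedom, two-sided, Benjamini-Hochberg over 14404 genes). Fold changes are on this scale and understate changes of low genes. Alternatives were other scalings, no filter, pseudocounts of 0.1 and 2, edgeR's quasi-likelihood test, DESeq2 1.42.0, a replicate block, fits of only the 2 groups, and each library left out. Exact intervals and floors (3 reads: 0.122 to 0.177 CPM of the library totals, or 0.231 TMM-scaled CPM on average in hepatocytes) cover counting error only. Positions and exon lengths come from GENCODE M21.

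The 9 genes and all lists were chosen with earlier results of these data known. Named from a list were up to 3 of the genes called in the comparison described, those with the highest mean CPM over the 8 libraries. Hgfac and Hpn were added after their values were seen. The labels do not state whether groups came from the same mice, and the 2 libraries of a group are not described beyond their number.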

Additional observations from a re-analysis of the deposited data

How the results depend on the processing

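Of 54 results (9 genes in 6 comparisons), 27 were called, and 20 of these were called in every one of the 18 alternatives. The number of the 9 genes called in b-gal+ against b-gal- cells was 2, but 4 with DESeq2 and 5 in a fit of only the 2 groups. In b-gal- against EpCAM-positive cells, 1757 genes were called with limma, 2855 with DESeq2 and 0 in a fit of only the 2 groups (1463 higher and 1617 lower at an unadjusted p under 0.05), where 0 of the 9 were called in place of 3. In b-gal+ against EpCAM-positive cells, 4685 genes were called, and 2751 in a fit of only the 2 groups. With 1 library left out, the lone sample is assumed to vary like the other groups. The genes called then ranged from 1289 to 4366 in b-gal+ against b-gal- cells (main 3358; 1 to 5 of the 9), from 1953 to 5657 in b-gal+ against EpCAM-positive cells (2 to 5 of the 9) and from 0 to 2982 in b-gal- against EpCAM-positive cells (0 to 5 of the 9). The 0 came without b-gal- replicate 2 or hepatocyte replicate 2, with 2709 and 4093 genes at an unadjusted p under 0.05. Against hepatocytes the ranges were 6842 to 9223, 7313 to 9921 and 7065 to 9018 genes for b-gal+, b-gal- and EpCAM-positive cells (6 to 7, 6 to 8 and 6 to 7 of the 9). The cause of these changes was not tested, beyond the smaller number of libraries.

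Directions of the 9 genes turned only for differences that were uncalled in the main analysis (-1.33 to 1.02), while the list genes that turned (Adam9, Plxnb2, Ptpn11 and Stat3) had been called lower. Apart from Tgfa in EpCAM-positive cells and Ptpn11, they were uncalled in the fits that turned them. Under the authors' scaling and library totals, EpCAM-positive cells against hepatocytes turned for Tgfa (1.02 and 1.07), Adam9 (0.37 and 0.42), Plxnb2 (0.24 and 0.30), Ptpn11 (1.01 and 1.06) and Stat3 (0.28 and 0.34), b-gal+ cells against hepatocytes for Ptpn11 (0.62 and 0.56) and b-gal+ against EpCAM-positive cells for Hgf (-0.10 and -0.21). Tgfa in b-gal- cells against hepatocytes was -0.10 with DESeq2 size factors, -0.054 with no filter, -0.10 with DESeq2 and -0.092 in a fit of only the 2 groups. Areg in b-gal- against EpCAM-positive cells was -0.043 with library totals. With 1 library left out, b-gal+ against b-gal- cells ranged from -0.74 to 0.22 for Met (turned without b-gal- replicate 1) and from -0.39 to 0.22 for Egfr (without the second b-gal+ or the first b-gal- library). Against hepatocytes, Ereg ranged from -0.19 to 0.73 in b-gal+ cells (turned without b-gal+ replicate 1) and from -0.18 to 2.16 in EpCAM-positive cells (without EpCAM-positive replicate 1), and Tgfa in b-gal- cells from -0.096 to 0.034. In b-gal+ against EpCAM-positive cells the ranges were -0.30 to 0.76 for Hgf (turned without EpCAM-positive replicate 2), and -2.81 to 0.19 for Areg, -1.90 to 0.44 for Ereg and -0.27 to 1.31 for Hbegf (each without EpCAM-positive replicate 1). In b-gal- against EpCAM-positive cells they were -0.41 to 1.06 for Erbb2 (turned without b-gal- replicate 2 or EpCAM-positive replicate 1), -1.34 to 1.66 for Areg and -0.63 to 2.25 for Ereg (without b-gal- replicate 1 or EpCAM-positive replicate 2), and -1.35 to 0.23 for Hbegf (without EpCAM-positive replicate 2).

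With the replicate number as a block, 4061, 9067, 9662, 9597, 5450 and 2249 genes were called in the 6 comparisons in the order b-gal+ against b-gal- cells, b-gal+, b-gal- and EpCAM-positive cells against hepatocytes, and b-gal+ and b-gal- cells against EpCAM-positive cells (2, 7, 8, 7, 4 and 3 of the 9). The block added calls against hepatocytes for Erbb2 in b-gal+ cells (adjusted p = 0.0479), Areg in b-gal- and EpCAM-positive cells (adjusted p = 0.0229 and 0.0288) and Ereg in b-gal- cells (adjusted p = 0.0460). The differences between replicates 1 and 2 correlated between groups at 0.177 to 0.494 over 14404 genes, but with only 2 numbers a group the samples share a number and no stated pairing. Depth limits Areg and Ereg, with at most 250 reads in a library. Pooling the cells of 2 mice leaves the spread between mice unknown.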
